A study of Mus musculus with 6 samples.

Results

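The genes described here encode the enzymes that write and erase trimethylation of lysine 27 of histone H3 (H3K27me3): 8 subunits of Polycomb repressive complex 2 (PRC2), namely *Ezh1*, *Ezh2*, *Eed*, *Suz12*, *Jarid2*, *Mtf2*, *Rbbp4* and *Rbbp7*, and the 2 H3K27 demethylases *Kdm6a* (UTX) and *Kdm6b* (JMJD3). They were picked by gene name, by a rule that uses no measured value, and all 10 were found among the 16300 genes of the RNA-seq table. The question was whether the transcripts of the PRC2 and demethylase genes changed when granulosa cells (GCs), the follicle cells that surround the oocyte, were treated with dihydrotestosterone (DHT), an androgen that cannot be converted to estradiol. The 3 control libraries came from wild-type C57BL/6J mouse GCs in primary culture given medium alone, and the 3 DHT libraries from the same kind of culture given DHT at 25 nM for 24 h; both groups came from mice aged 8 to 9 weeks, and cells of several mice were pooled for each experiment. The labels call the extracted material whole ovary and name DHT in the treatment text of every sample, so that the groups were taken from the treatment field, which separates the libraries as their titles do.

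PRC2 places methyl groups on H3K27, and the trimethylated form marks genes that are held silent. EZH2 or its less active relative EZH1 carries the catalytic site, EED binds existing H3K27me3 and stimulates the enzyme, SUZ12 holds the core together, the histone-binding proteins RBBP4 and RBBP7 belong to PRC2 and to other chromatin complexes, and JARID2 and MTF2 help to bring the complex to its targets. KDM6A and KDM6B remove the methyl groups, and KDM6B is known as the demethylase whose gene is readily induced by outside signals.

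The study assayed binding of HIF1α, the subunit of hypoxia-inducible factor whose protein is stabilized when oxygen is low, at *Kdm6b*. The primers for that ChIP assay are shown because they fix where the factor was looked for; lower case gives the primer 5′ to 3′, and capitals mark the HIF core, ACGTG or GCGTG, on either strand.
mJMJD3F1: tgggcctgagccagaata
mJMJD3R1: agcagcctggttcaggtagtaa
mJMJD3F2: tgcgcaagtagcCACGTca
mJMJD3R2: tcctgtatcctctgtgcccttt
Of these primers, mJMJD3F2 held 1 match to the core, in the reverse orientation, and the other three held none.

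The 250 bases upstream of the annotated start were read for the PRC2 and demethylase genes from RefSeq sequences of GRCm38.p6, in which 9 of the 10 genes matched 11 windows; *Kdm6b* had none. The windows of *Rbbp7* and *Suz12* are shown because these were the 2 genes whose control and DHT libraries did not overlap, and that of *Kdm6a* because it is the demethylase with a window. All 3 genes lie on the plus strand, and capitals mark the HIF core on either strand.
Rbbp7, chrX:162760122-162760371: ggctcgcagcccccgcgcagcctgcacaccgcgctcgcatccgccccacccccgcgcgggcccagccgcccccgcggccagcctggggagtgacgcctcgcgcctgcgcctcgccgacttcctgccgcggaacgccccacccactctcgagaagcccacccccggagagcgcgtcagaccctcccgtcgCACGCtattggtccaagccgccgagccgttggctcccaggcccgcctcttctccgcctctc
Suz12, chr11:79992856-79993105: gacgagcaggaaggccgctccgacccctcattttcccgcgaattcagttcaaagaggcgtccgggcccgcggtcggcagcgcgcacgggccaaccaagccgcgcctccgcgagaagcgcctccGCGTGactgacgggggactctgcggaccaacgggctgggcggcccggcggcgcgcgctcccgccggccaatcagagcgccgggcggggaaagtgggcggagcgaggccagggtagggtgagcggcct
Kdm6a, chrX:18162325-18162574: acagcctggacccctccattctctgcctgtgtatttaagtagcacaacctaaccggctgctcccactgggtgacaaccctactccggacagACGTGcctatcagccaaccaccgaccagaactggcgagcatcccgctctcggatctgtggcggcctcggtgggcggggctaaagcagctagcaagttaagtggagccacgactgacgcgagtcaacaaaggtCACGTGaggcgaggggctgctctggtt
The *Rbbp7* window held 1 match to the core and the *Suz12* window 1. The *Kdm6a* window held 3, of which a pair overlapped on opposite strands. The core was found in 8 of the 11 windows, belonging to 7 genes, against 38.6% of 32851 RefSeq windows of the same length. A match is a description of these letters, not a site that was shown to be bound.

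Of the 10 PRC2 and demethylase transcripts, 1 fell with DHT, none rose, and 9 did not pass the test. *Rbbp7* was the transcript that fell, by 0.25 on the log2 scale. Values are normalised read counts, the reads of a gene divided by the size factor of the library, and each gene was tested with limma at a Benjamini-Hochberg adjusted p of at most 0.05. By this rule 11.2% of the 16292 genes tested were called, 6.52% higher and 4.66% lower in DHT, so that 1 of 10 was near the share of all genes. None of the 10 also changed by more than 1 on the log2 scale, the fold threshold of the study, which 1.31% of all genes passed. In RNA from mixed cultures, fewer cells of a type and less RNA per cell cannot be told apart. Nothing in the sources says which libraries share a pool of mice, so libraries were not paired. The p-values set the difference between groups against the spread of libraries within a group.

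**Figure D1:**
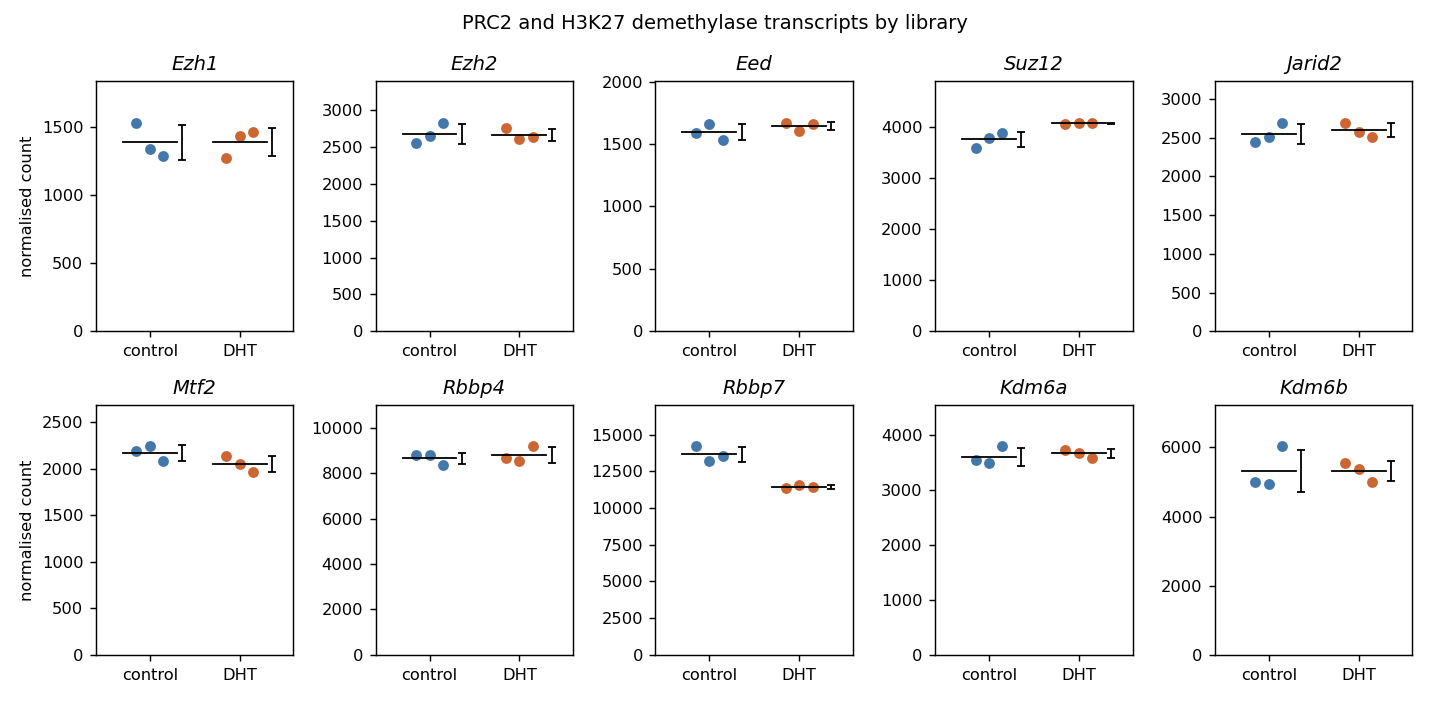
Normalised read count of each PRC2 and demethylase gene in the 3 control (blue) and 3 DHT (orange) libraries; each point is a library, horizontal lines are group means, brackets are ± 1 SD, and each vertical axis starts at 0. The *Rbbp7* libraries with DHT (11338 to 11596) lie below all controls (13239.5 to 14198), the *Suz12* libraries with DHT lie above all controls, and the other 8 genes overlap.

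The catalytic subunits overlapped between the groups and were not called. *Ezh2* (chr6:47530139-47595341, minus strand, GRCm38) had 2561, 2643 and 2829 normalised counts in the control libraries and 2761, 2612 and 2631 in the DHT libraries. The DHT values lay inside the range of the controls, and the means were 2678 ± 138 (SD, n = 3) and 2668 ± 81.4 (SD, n = 3). The log2 fold change of *Ezh2* was -0.0043 ± 0.048 (SE; limma, adjusted p = 0.97), and its 95% interval of -0.11 to 0.10 spans changes of -7.45% to 7.42%. *Ezh1* (chr11:101191115-101226463, minus strand) had 1528, 1337 and 1285 counts in control and 1266, 1432 and 1459 in DHT. The groups overlapped, with control replicate 1 the highest library and DHT replicate 1 the lowest. The log2 fold change of *Ezh1* was 0.0040 with an interval of -0.17 to 0.18 (limma, adjusted p = 0.98), among the widest of the set.

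Of the core partners of the enzymes, *Suz12* was higher in every DHT library without passing the test, and *Eed* overlapped. *Suz12* (chr11:79993106-80034123, plus strand) had 3604, 3791 and 3895 counts in control and 4073, 4076 and 4089.7 in DHT. All 3 DHT libraries were above all 3 controls, and they differed from each other by less than any pair of controls, with means of 3763 ± 147 (SD, n = 3) and 4079 ± 9.12 (SD, n = 3). The log2 fold change was 0.12 with an interval of 0.029 to 0.21, and the adjusted p of limma was 0.095 (unadjusted p = 0.0152). Across the 16292 genes, 30.6% had groups that did not overlap, and 15.9% of all genes did so with DHT higher, so that 2 such genes of 10 was no more than the background. *Eed* (chr7:89954654-89980983, minus strand) had 1593, 1662 and 1536 counts in control and 1671, 1605 and 1659.6 in DHT. The *Eed* groups overlapped, and the log2 fold change was 0.044 (interval -0.060 to 0.15, limma, adjusted p = 0.61).

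Of the histone-binding subunits, *Rbbp7* fell and *Rbbp4* was not called. *Rbbp7* (chrX:162760402-162779092, plus strand) had 14198, 13239.5 and 13541 counts in control and 11338, 11596 and 11405 in DHT. Every DHT library was below every control, a pattern that 14.7% of all genes shared in that direction, and the means were 13659.7 ± 490.3 (SD, n = 3) and 11446 ± 134 (SD, n = 3). The log2 fold change of *Rbbp7* was -0.25 ± 0.038 (SE; interval -0.34 to -0.17, limma, adjusted p = 0.0032), a change of -16.2% with bounds of -21.0% and -11.0%. The change in *Rbbp7* was larger than that of 74.3% of all genes tested. It was called in all 14 alternative analyses, with log2 fold changes between -0.28 and -0.23 and adjusted p-values of limma between 0.0022 and 0.041.

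*Rbbp4* (chr4:129307100-129335370, minus strand), which encodes the close relative of RBBP7, had 8792, 8808 and 8346 counts in control and 8676, 8534 and 9179.5 in DHT. The groups overlapped, and DHT replicate 3 was the highest library. The log2 fold change of *Rbbp4* was 0.024 with an interval of -0.070 to 0.12 (limma, adjusted p = 0.77). Per length, the log2 ratio of *Rbbp7* to *Rbbp4* was 2.28, 2.18 and 2.29 in the control libraries and 1.97, 2.03 and 1.90 in the DHT libraries, with no overlap. That shift of -0.28 in the ratio uses the *Rbbp7* values again and is no separate observation.

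The subunits that help to recruit PRC2 overlapped between the groups. *Jarid2* (chr13:44729474-44921643, plus strand), a Jumonji family protein that lacks demethylase activity, had 2448, 2509 and 2686 counts in control and 2693, 2573 and 2514 in DHT. For *Jarid2* the log2 fold change was 0.026 with an interval of -0.082 to 0.13 (limma, adjusted p = 0.79). *Mtf2* (chr5:108065674-108109004, plus strand), a Polycomb-like subunit, had 2189.6, 2242 and 2083 counts in control and 2136, 2051 and 1972 in DHT. Both lowest *Mtf2* values were in DHT libraries, but DHT replicate 1 lay above control replicate 3. For *Mtf2* the log2 fold change was -0.081 with an interval of -0.19 to 0.025 (limma, adjusted p = 0.33).

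The demethylase transcripts did not pass the test. *Kdm6b* (chr11:69398508-69413675, minus strand) had 4997, 4943 and 6031 counts in control and 5561, 5380.2 and 5002 in DHT. Control replicate 3 was the highest of the 6 libraries and the other 2 controls were the lowest, so that the 3 DHT libraries lay within the control range. The means were 5323 ± 613 (SD, n = 3) and 5314 ± 285 (SD, n = 3), and the log2 fold change was 0.0023 ± 0.076 (SE; interval -0.17 to 0.17, limma, adjusted p = 0.99). In fold terms the interval for *Kdm6b* ran from 0.889 to 1.13, and without control replicate 3 its log2 fold change was 0.095 (limma, adjusted p = 0.27). *Kdm6a* (chrX:18162575-18279936, plus strand), the X-linked demethylase, had 3541, 3484 and 3793 counts in control and 3735, 3675 and 3583 in DHT. The groups overlapped, and the log2 fold change was 0.024 (interval -0.073 to 0.12, limma, adjusted p = 0.78).

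**Figure D2:**
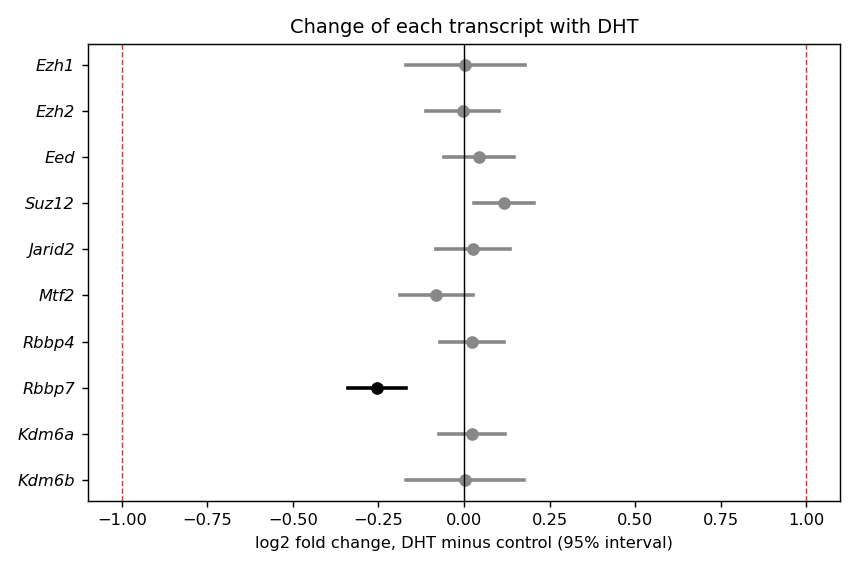
Log2 fold change of each gene, DHT minus control, on the horizontal axis, with points for the limma estimate and bars for its 95% interval; black marks the gene with an adjusted p of at most 0.05 and dashed lines mark a log2 fold change of 1 in either direction. *Rbbp7* at -0.25 lies apart from the other 9 genes, whose estimates run from -0.081 to 0.12.

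Across the other 9 genes the 95% intervals ran from -0.19 to 0.21 on the log2 scale, that is, from a change of -12.2% to one of 15.3%. An interval that includes 0, as in 8 of the 10 genes, does not show that a transcript was the same in both groups, but changes beyond these bounds lay outside the intervals of those 9 transcripts. The median log2 fold change of the 10 genes was 0.014, against -0.0052 for all genes tested. Their median change irrespective of direction was 0.025 on the log2 scale, against 0.065 for the 5403 genes with means in the same range, of which 15.3% were called, and 0.11 for all genes tested.

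**Figure D3:**
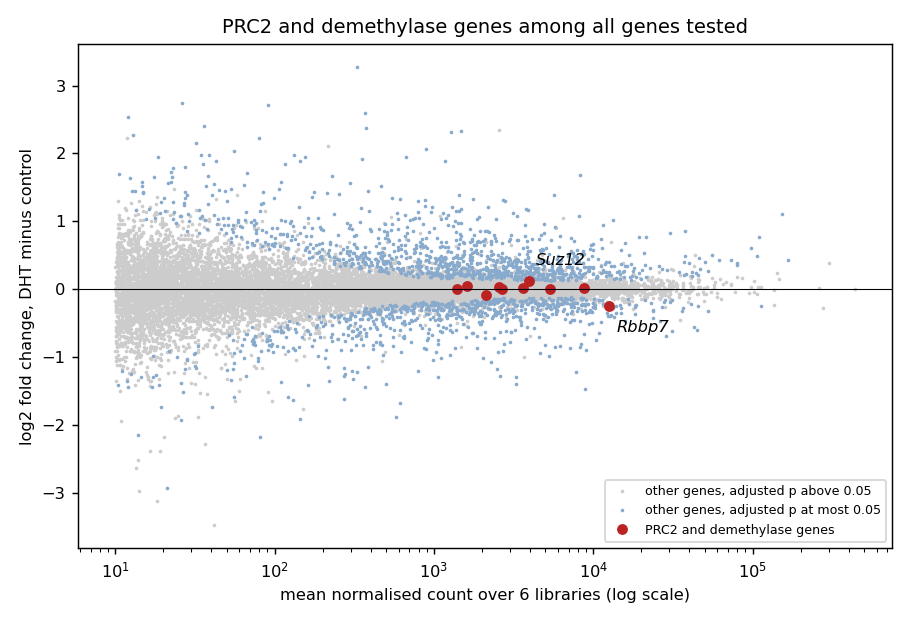
Log2 fold change, DHT minus control, against the mean normalised count over the 6 libraries (log scale) for the 16292 genes tested; grey points are genes with an adjusted p above 0.05, blue points those at or below it, and red points the PRC2 and demethylase genes. The red points lie close to 0 except *Rbbp7* at -0.25.

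The reads behind these values were many, with 36111177 to 41928585 reads on genes per library, as recovered from the step between values. A separate check did not accept that recovery in every library. The most abundant member per length was *Rbbp7*, with 122 ± 5.3 RPKM in control (SD, n = 3), the reads per kilobase of exon scaled to the reads of the library, and 100.2 ± 0.90 in DHT. *Rbbp4* followed at 25.7 ± 1.0 in control, then *Kdm6b* at 19.9 ± 2.1 and *Suz12* at 19.8 ± 0.59, whose control libraries overlapped. *Kdm6a*, *Eed*, *Ezh2* and *Mtf2* lay between 9.91 and 11.2, and each overlapped its neighbour in this order. *Jarid2* at 6.82 ± 0.26 was above *Ezh1* at 4.84 ± 0.49, the lowest, without overlap.

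The order depended on the length used. With the longest annotated transcript in place of all exons, *Ezh2* rose in the order to 25.0 ± 1.0 and stood above *Suz12* and *Kdm6b*, and *Ezh1* stood above *Jarid2*, with control libraries that overlapped. *Rbbp7* and *Rbbp4* stayed first and second. *Ezh2* exceeded *Ezh1* in every library under both lengths, and the log2 ratio of *Ezh2* to *Ezh1* per kilobase of exon was 1.11 ± 0.20 in control (SD, n = 3) and differed by -0.0083 in DHT. The log2 ratio of *Kdm6b* to *Ezh2*, the inducible eraser against the main writer, was 0.93 ± 0.096 in control and 0.93 ± 0.060 in DHT per kilobase of exon, and it overlapped between the groups. With the longest transcript this ratio was -0.27 in control and -0.26 in DHT, so that which of the pair was the more abundant turned with the length used.

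**Figure D4:**
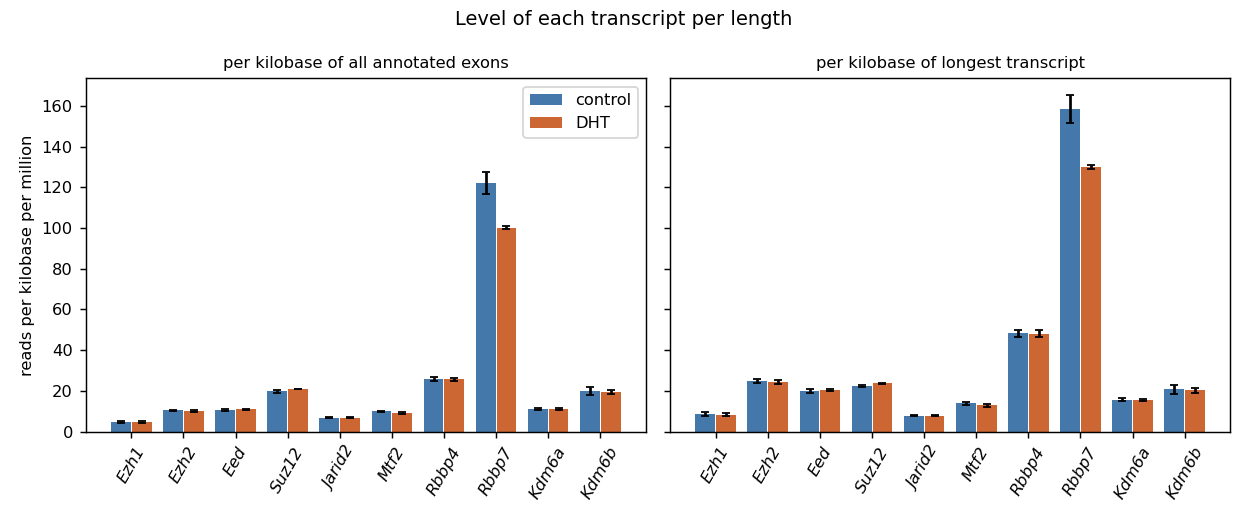
Level of each transcript in RPKM, with the kilobases taken over all annotated exons (left) or the longest transcript (right); bars are means of 3 control (blue) or 3 DHT (orange) libraries and error bars are ± 1 SD. *Rbbp7* stands above the other genes in both panels, at 122 in control and 100.2 in DHT on the left.

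Some of these genes share exonic bases with a gene on the opposite strand, and the strand setting of the counting was not given in the sources used here. *Rbbp7* shares 174 bases, 5.98% of its exons, with *Txlng*, which encodes gamma-taxilin. *Txlng* counts were higher in all 3 DHT libraries (1858 ± 54.8 in control and 2056 ± 62.0 in DHT, SD, n = 3 each), opposite to *Rbbp7*, with a log2 fold change of 0.15 (limma, adjusted p = 0.064). *Mtf2* shares 6.93% of its exons with *Tmed5*, a cargo transport gene, which rose by 0.25 (limma, adjusted p = 0.022). *Kdm6b* shares 4.11% with the antisense gene *Kdm6bos*, whose mean over the 6 libraries was 58.6. *Rbbp4*, *Eed*, *Suz12* and *Ezh2* also share exonic bases with an opposite gene, whereas *Ezh1*, *Jarid2* and *Kdm6a* share none. The part of these overlaps in the values was not tested.

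Other genes of the Polycomb system gave no calls. Of 6 further PRC2 genes in the table (*Aebp2*, *Epop*, *Lcor*, *Lcorl*, *Phf1* and *Phf19*), none was called higher or lower, and their median log2 fold change was 0.0089. Values ran from -0.058 for *Aebp2* to 0.18 for *Epop*, with limma adjusted p-values of 0.33 or more. Of 20 genes of Polycomb repressive complex 1, which reads H3K27me3 and ubiquitinates histone H2A, none was called, with a median of -0.021. The lowest adjusted p of limma in that list, 0.082, belonged to *Phc1*, at 1341 ± 70.3 counts in control and 1499 ± 34.4 in DHT. *Cbx6* was called lower without control replicate 3 (-0.20, limma, adjusted p = 0.019).

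Among 4 other Jumonji family demethylases that the study assayed by qPCR, 1 fell, with a median of 0.0074 over the list. Over all genes tested, 4.66% were called lower in DHT. *Kdm3a*, which removes methyl groups from H3K9, had 5143, 5026 and 5542 counts in control and 4537, 4371 and 4403 in DHT. That is a log2 fold change of -0.24 (interval -0.34 to -0.14, limma, adjusted p = 0.0092), and the groups did not overlap. *Kdm3a* was called in 13 of 14 alternatives and lost its call without the intensity trend of limma (adjusted p = 0.071). *Kdm4a* at 0.022, *Kdm4b* at 0.082 and *Kdm5b* at -0.0075 had limma adjusted p-values of 0.34 or more. The H3K27 acetyltransferases *Ep300* (-0.037) and *Crebbp* (0.035), which place the mark that competes with methylation, were not called.

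The signalling route through PI3K and AKT to HIF1α held 2 called genes of 10, both higher in DHT, with a median of 0.039. Over all genes tested, 11.2% were called and 6.52% were called higher in DHT. *Hif1a* had 23092, 24509 and 24800.5 counts in control and 30264, 29369.6 and 29451 in DHT. All DHT libraries were above all controls, and the log2 fold change was 0.30 ± 0.041 (SE; interval 0.21 to 0.39, limma, adjusted p = 0.0021). *Pik3r2*, a regulatory subunit of PI3K, rose by 0.16 (limma, adjusted p = 0.025), from 3190.5 ± 88.6 to 3561 ± 22.3 counts. *Hif1a* was called in all 14 alternatives, and *Pik3r2* in 7 of 14, losing its call with 5 of the 6 libraries left out in turn (all but control replicate 3), without the trend and with the replicate block (limma adjusted p up to 0.099). The other 8 genes of the route, which include *Akt1*, *Akt2*, *Pik3ca* and *Arnt*, were not called. In the same libraries *Kdm6b* had a log2 fold change of 0.0023.

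*Ezh2* and several PRC2 genes are known to be expressed more in dividing cells, so 20 proliferation genes were read beside them. Of these, 1 rose and none fell, with a median of 0.033, where 11.2% of all genes tested were called. *Pcna*, the clamp of DNA polymerase, went from 4261 ± 287 counts in control to 4964 ± 168 in DHT, a log2 fold change of 0.22 (limma, adjusted p = 0.029). *Mki67*, at -0.12, and the mitotic cyclin gene *Ccnb1*, at -0.30, had limma adjusted p-values of 0.44 and 0.063. *Pcna* was called in 7 of 14 alternatives and lost its call in the same 7 settings as *Pik3r2* (limma adjusted p up to 0.13). Without control replicate 1, *Ccnb1* (-0.39, limma, adjusted p = 0.017) and *Birc5* (-0.23, limma, adjusted p = 0.040) were called lower. *Ccnb1* was also called without DHT replicate 1 (-0.37, limma, adjusted p = 0.039), and *E2f3* was called without control replicate 3 (0.18, limma, adjusted p = 0.032).

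Genes that PRC2 is known to hold silent in many cell types, and genes whose H3K27me3 was measured, were read from 3 lists. None of 19 *Hox* genes was called (median -0.027, lowest limma adjusted p = 0.19), although *Hoxd11* was called without control replicate 3 (1.22, limma, adjusted p = 0.011). None of the cyclin-dependent kinase inhibitors *Cdkn1a* (-0.12), *Cdkn1c* (-0.24), *Cdkn2a* (-0.24) and *Cdkn2b* (0.30) was called, and *Cdkn2a* and *Cdkn1c* were low, with control means of 26.5 and 47.2 counts. Of the ChIP-qPCR targets for H3K27me3, 3 were in the table and *Cyp19a1* was not found there. *Runx1*, a transcription factor gene induced in ovulating follicles, had 4696, 3768 and 4323 counts in control and 5363, 5894 and 5797 in DHT, and it rose by 0.42 (limma, adjusted p = 0.0077), a call lost only without the intensity trend (adjusted p = 0.074). *Lhcgr*, the luteinizing hormone receptor gene, had 32.7, 12.1 and 63.9 counts in control and 68.5, 74.2 and 95.8 in DHT. All *Lhcgr* values with DHT were above the controls, but the log2 fold change of 1.38 did not pass the test (interval 0.29 to 2.48, limma, adjusted p = 0.11), though it did without control replicate 3 (1.92, limma, adjusted p = 0.010). *Fshr*, the follicle-stimulating hormone receptor gene, overlapped between groups (-0.043, limma, adjusted p = 0.87).

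**Figure D5:**
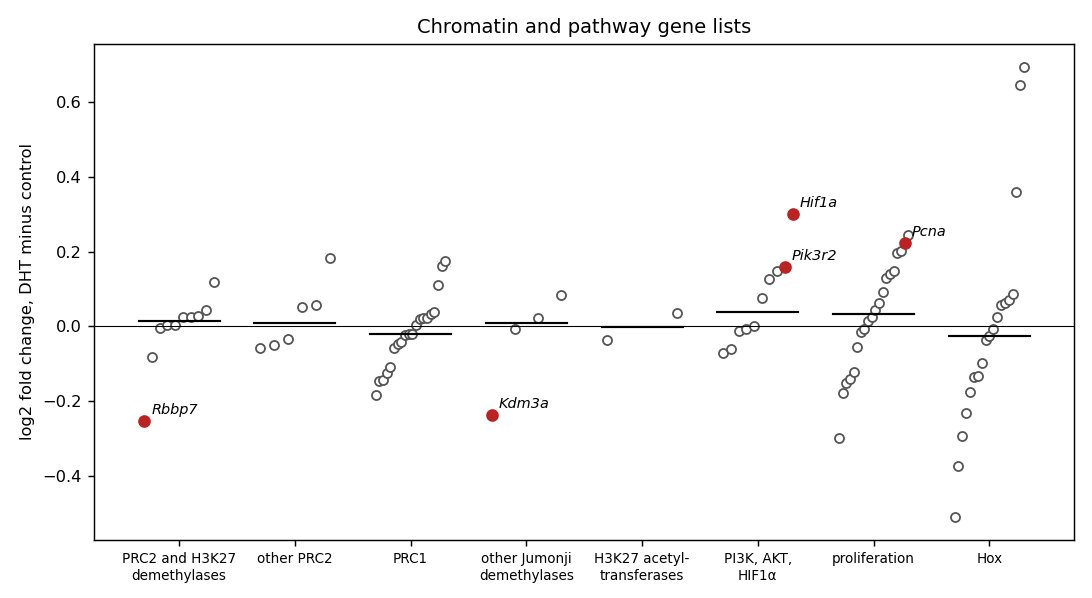
Log2 fold change, DHT minus control, of each tested gene in 8 lists, sorted within each list; filled red points have a limma adjusted p of at most 0.05, open points do not, and short lines are list medians. Of the lists other than the PRC2 and demethylase genes, red points appear for *Kdm3a*, *Hif1a*, *Pik3r2* and *Pcna*, and the medians lie within 0.039 of 0.

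Markers of cell types were read as a check of the label. Of 10 granulosa markers, 9 were in the table, and *Cyp19a1* was not found there. *Inha* (54181 in control and 35515 in DHT), *Cyp11a1* and *Inhba* were abundant. *Fshr* and *Amh* were low, with control means of 150.1 and 130.3 counts. *Hsd17b1* and *Cyp11a1* were called higher in DHT, in 13 and 11 of the 14 alternatives, and *Inha* and *Foxl2* lower, in 14 and 7. *Fst*, at 0.36 (limma, adjusted p = 0.29), was called higher without control replicate 3 (0.56, limma, adjusted p = 0.036). The theca markers *Cyp17a1* and *Insl3* were looked up and not found in the table. The summed level of 4 endothelial markers was 150.4 to 179 counts in control and 141 to 199 in DHT, that of 4 leukocyte markers 249 to 272 and 189 to 263, with *Csf1r* called lower in DHT (in 10 of the 14 alternatives), and that of 6 oocyte markers 337 to 788 and 108 to 599.6. Leukocyte markers did not move together. *Ptprc*, at a control mean of 8.5 counts, was higher in every DHT library without being called (0.72, limma, adjusted p = 0.22). *Cd68* (-0.075) and *C1qb* (-0.49) overlapped between the groups. The summed level of 6 fibroblast and smooth muscle markers was 6113 to 8426 counts in control and 9853 to 11601 in DHT, a sum made up mostly of *Acta2* (5399 in control and 9012 in DHT). The smooth muscle markers *Acta2*, *Myh11* and *Cnn1* were called higher, in 13, 11 and 7 of the 14 alternatives. The fibroblast markers had lower means in DHT without being called, with log2 fold changes of -1.05 for *Dcn*, -0.38 for *Pdgfra* and -0.13 for *Col1a1*, and *Dcn* was called lower without control replicate 3 (-1.40, limma, adjusted p = 0.018). *Zp3* was listed at 0 in DHT replicate 2 and was the one marker of these lists at 0 in a library. *Acta2* was higher in every DHT library, the same libraries in which *Rbbp7* was lower and *Hif1a* higher, and its part in those differences was not tested.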

How the data were processed

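RNA-seq of 6 libraries of cultured mouse GCs, 3 control and 3 DHT, was analysed. The authors trimmed reads with Trimmomatic 0.36, aligned them to GRCm38 by STAR 2.5.2b, and used featureCounts (Subread 1.5.2) to count uniquely aligned exonic reads. The deposited signal is a normalised count: the authors scaled the reads of each library by its DESeq2 size factor. The annotation release and the strand setting were not given in the sources used here. The deposited values of each library were whole multiples of one step (within 0.01 of a whole number for 100% of values), which gave 36111177 to 41928585 reads on genes. A separate check, which found the step in another way, did not accept 3 of these 6 libraries as whole reads.

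The test was the moderated test of limma 3.58.1 (R 4.3.3) with an intensity trend, applied to log2(value + 1) for 16292 genes whose mean reached 10, and p-values were adjusted by Benjamini-Hochberg over all of them. Calls needed an adjusted p of at most 0.05. Intervals are at 95%. The fit was tried on simulated data with planted changes larger than those of the PRC2 and demethylase genes. Detection of changes as small as theirs was not tested. Levels per length used GENCODE exons of GRCm38. Reads that map to several places were not counted by the authors. The fold changes and p-values in the table, a second table of 190 genes, and the ChIP-seq and qPCR data were not used here.

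Groups came from the treatment field of the labels. The genes described and the lists were chosen with earlier results of these data known. All 10 PRC2 and demethylase genes are named; of other lists, the called genes (up to 4 by p), those needed to read a list, and all genes of lists with 4 or fewer are named. Genes named outside that rule, such as those called only in an alternative, were chosen after their values were seen. Some genes of the lists are counted but not reported here one by one. Replicate numbers were shared between groups, but deviations of same-numbered libraries correlated at 0.0058, 0.067 and -0.24, so no block was used in the main test. Alternatives were pseudocounts of 0.5 and 8, no filter, a mean of at least 50, quantile normalization, no trend, the replicate block, each library left out and, chosen after seeing the data, equal library totals.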

Additional observations from a re-analysis of the deposited data

How the results depend on the processing

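The call of *Rbbp7* and the count of 1 called PRC2 or demethylase gene stood in all 14 alternatives run, and no gene of the 10 passed the fold threshold in any. Of the other 9, *Suz12*, *Eed* and *Mtf2* kept their direction throughout, whereas 6 estimates near 0 changed sign without being called. With quantile normalization *Ezh1* was -0.011 and *Kdm6b* -0.013 on the log2 scale. With equal totals *Ezh1* was -0.026, *Jarid2* -0.0033, *Rbbp4* -0.0054, *Kdm6a* -0.0057 and *Kdm6b* -0.027. With each library left out in turn *Ezh1* ran from -0.047 to 0.078, *Ezh2* from -0.036 to 0.036, *Jarid2* from -0.0019 to 0.065, *Rbbp4* from -0.0069 to 0.046, *Kdm6a* from -0.00040 to 0.061 and *Kdm6b* from -0.048 to 0.095.

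The numbers of genes called over the table moved more. The number called higher in DHT was 1063 in the main test, 501 without the intensity trend, 633 with the replicate block, and 586 to 1240 with a library left out. The number called lower was 760, and it was 303 without the trend, 357 with the replicate block, and 351 to 863 with a library left out. The number past the fold threshold was 213, and it was 131 with a mean of at least 50 and 140 to 285 with a library left out. Among the counts with a library left out, the lowest came without DHT replicate 2 (586 higher, 382 lower) or DHT replicate 3 (586 higher, 351 lower).

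Among the lists, the call of *Kdm3a* (1 of the Jumonji list) became 0 without the trend. The 2 calls of the HIF1α route became 1 without the trend, 1 with the replicate block, and 1 to 2 with a library left out. The 1 call of the proliferation list became 0 without the trend, 0 with the replicate block, 2 with equal totals, and 0 to 2 with a library left out. The 1 call of the ChIP-qPCR genes became 0 without the trend and 1 to 2 with a library left out. With a library left out Polycomb repressive complex 1 had 0 to 2 calls and the *Hox* list 0 to 1. The cause of these shifts was not tested.

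Same-numbered libraries shared only a number, and the replicate block left the call of *Rbbp7* (limma, adjusted p = 0.026) and the 9 other genes uncalled. TMM scaling, edgeR and DESeq2 on recovered reads were planned and not run, because a separate check of the step between values did not accept 3 of the 6 libraries as whole reads. That check found the step in another way than the fit behind the read totals, which gave whole multiples in all 6 libraries. With 3 libraries per group, the intervals of *Ezh1* and *Kdm6b* reach 0.17 on the log2 scale in either direction, which limits what can be said of small changes in them.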

Other observations

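RBBP7 also belongs to histone acetyltransferase, histone deacetylase, NuRD, Sin3 and CAF-1 complexes. A list of 15 genes for the other subunits of those complexes was chosen after the value of *Rbbp7* was seen, and it is described without a test of the list. None of the 15 had a limma adjusted p of at most 0.05, and 10 had positive and 5 negative log2 fold changes, from -0.066 for *Sin3b* to 0.23 for *Chaf1b*. *Hat1*, the catalytic partner of RBBP7 in histone acetylation, averaged 1632 ± 28.4 counts without and 1686 ± 9.58 with DHT (SD, n = 3 each), a log2 fold change of 0.047. The NuRD helicase gene *Chd4* had a log2 fold change of 0.12 (limma, adjusted p = 0.072), *Gatad2b* 0.19 (limma, adjusted p = 0.056) and *Chaf1b* 0.23 (limma, adjusted p = 0.059), all with every DHT library above every control. *Hat1* was also higher in every DHT library, *Mbd3* (-0.047) was lower in every one, and the rest of the 15 overlapped. Over all genes tested, 30.6% had groups that did not overlap. The deacetylase genes *Hdac1* (-0.019) and *Hdac2* (-0.033) overlapped between the groups. Among *Rbbp7*, *Rbbp4* and these 15 genes, *Rbbp7* was the one called.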
